A study of Homo sapiens with 4 samples.

Results

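The gene SSBP2 lies on the minus strand of the long arm of human chromosome 5, and the sites described here are the SOX4 peaks at its start and in the stretch upstream of it. They were taken as every peak of the 3 deposited SOX4 peak lists that overlaps chromosome 5 from 80700000 to 81200000 (hg19), a window of 500 kb that holds the gene body, its start near 81047000 and the sequence upstream. The window held 6 of the 1558 peaks of the 3 lists. The peaks fell into 2 sites, each with 1 peak of every list. The members were chosen by the positions of called peaks, in a window drawn with the fold enrichment of these peaks known. The number of peaks, their heights and their ranks are therefore given as a description, with no test.

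The data are chromatin immunoprecipitation sequencing of the established glioblastoma cell line U251, of human origin, 3 days after a virus had brought in SOX4 fused to an HA epitope tag for overexpression. An antibody to HA was used in 3 immunoprecipitations, named IP 1, IP 2 and IP 3, and 1 library of input chromatin came from cells of the same kind. All 4 samples carried the tagged, overexpressed protein, so the values do not separate it from SOX4 at its native level, and no immunoprecipitation from cells without the tag was analysed here. The immunoprecipitations were independent, per the labels' protocols, but nothing says that they came from separate cultures, so their spread may be technical.

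SOX4 is a transcription factor of the SOXC group, which binds DNA in the minor groove through an HMG box and is abundant in progenitor cells and in many tumours, glioblastoma among them. SSBP2 encodes a single-stranded DNA-binding protein, a close relative of SSBP3 and SSBP4. Proteins of this family bind LDB1, the adaptor that joins LIM-domain transcription factors and LMO proteins into complexes at promoters and enhancers, and protect it from degradation through the ubiquitin ligase RLIM. SSBP2 has been studied as a candidate tumour suppressor in myeloid leukaemia.

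The deposited files give positions but no bases, and the bases under the peaks were not read here. To show the kind of sequence at which the gene begins, the 250 bases before the most upstream annotated start of SSBP2 are printed, from the RefSeq promoter table (GRCh38.p14, chr5:81751808-81752057, minus strand, 5′ to 3′). Capitals mark each CpG dinucleotide, of which this stretch holds 25 at a GC content of 77.2%. These positions belong to another build than the peaks and were not compared with them, so it is not known whether this stretch lies under a peak.

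SSBP2 promoter: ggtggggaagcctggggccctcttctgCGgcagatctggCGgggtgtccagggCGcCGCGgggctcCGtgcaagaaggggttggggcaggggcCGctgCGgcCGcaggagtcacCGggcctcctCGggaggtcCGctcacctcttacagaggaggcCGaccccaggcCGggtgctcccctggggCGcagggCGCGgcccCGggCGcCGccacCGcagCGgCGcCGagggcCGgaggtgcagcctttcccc

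RefSeq gives 4 starts for SSBP2. The other 3 lie 959, 1058 and 1059 bp downstream of the first, so a short distance between a peak and "the start" depends on which start is meant. The 4 windows from 250 bases before to 50 bases after these starts had GC contents of 74.7%, 67.7%, 71.7% and 72.0% and held 30, 26, 30 and 30 CpG dinucleotides. The windows of the other 3 starts overlap one another, so the 4 are not separate sequences. Over 35114 such windows of all genes, the median was 58.7% GC and 14 CpG. The first SSBP2 window has the highest GC content of the 4, and 10.3% of all windows had a GC content at or above it. As many CpG or more as in that window were found in 22.4% of all windows.

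The 4 windows were searched on both strands for the SOX core sequences AACAAAG and AACAATG and for their shorter forms ACAAAG and ACAATG, which lie inside the longer ones. None of the 4, some of which overlap, held any of these letters. Over all windows, whose median GC content was lower, AACAAAG was present in 5.20%, AACAATG in 3.33%, ACAAAG in 16.1% and ACAATG in 10.8%. The B box of tRNA genes, the internal promoter element bound by the RNA polymerase III factor TFIIIC, was searched on both strands by its consensus. It was found in 0.185% of all windows and in none of the 4. The windows are not the peak sequences, and nothing about SOX4 follows from the missing letters.

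The first site, called the start site, spans chromosome 5 from 81047099 to 81047475 (hg19). IP 1 had its peak from 81047099 to 81047475, IP 2 from 81047126 to 81047433 and IP 3 from 81047124 to 81047404. The summits, the positions of greatest read overlap, were at 81047258 in IP 1, 81047235 in IP 2 and 81047281 in IP 3. Measured from the rounded start of 81047000, they lay 258, 235 and 281 bp upstream. The start used is a rounded position and the annotated starts are spread over about 1 kb, so these peaks can be placed at the start region of SSBP2 but not on a given side of a given start.

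The second site, called the upstream site, spans chromosome 5 from 81147628 to 81147945. The peaks ran from 81147653 to 81147945 in IP 1, from 81147638 to 81147930 in IP 2 and from 81147628 to 81147932 in IP 3. Their summits were at 81147838, 81147786 and 81147810. They lay 100.838, 100.786 and 100.81 kb upstream of the rounded start. At this distance the spread of annotated starts matters little, and all 3 peaks lie upstream of every SSBP2 start that falls near the rounded one.

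Both sites were placed alike in the 3 lists. The summits of the start site ranged over 46 bp and those of the upstream site over 52 bp, against a median range of 37 bp over the 263 regions that held a peak of every list. Of these 263 shared regions, 151 had a tighter range than the start site and 168 a tighter range than the upstream site. The summit distance between the sites was 100580 bp in IP 1, 100551 bp in IP 2 and 100529 bp in IP 3.

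The edges of the peaks differed mainly at the start site. There the far edge moved by 71 bp between lists and the near edge by 27 bp, whereas the edges of the upstream site moved by 15 and 25 bp. The start site was 377, 308 and 281 bp wide in IP 1, IP 2 and IP 3, and the upstream site was 293, 293 and 305 bp wide. The stretch common to the 3 peaks was 279 bp of the 377 bp of the start site (74.0%) and 278 bp of the 318 bp of the upstream site (87.4%). All 6 peaks were wider than the median peak of their list, which was 221, 208 and 237 bp.

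**Figure D1:**
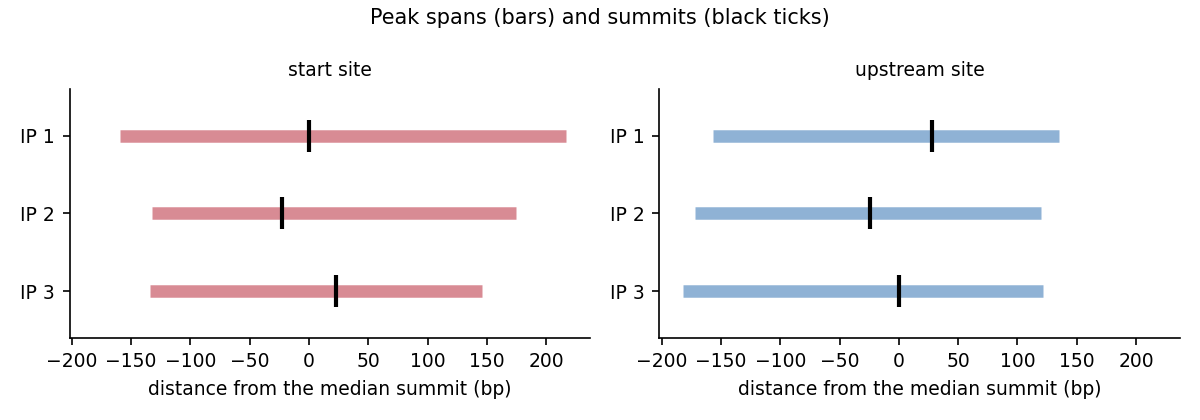
Span (bar) and summit (black tick) of the peak of each immunoprecipitation at the start site and the upstream site, as the distance in bp from the median summit of the site. The summits spread over 46 bp and 52 bp, and the bars of the start site are 281 to 377 bp long against 293 to 305 bp at the upstream site.

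The height of a peak is given by its pileup, the number of reads, each extended to the fragment length, that overlap the summit. At the start site 43 reads were stacked in IP 1 (exact 95% Poisson interval 31.1 to 57.9), 39 in IP 2 (27.7 to 53.3) and 30 in IP 3 (20.2 to 42.8). At the upstream site it was 43 reads in each of the 3 immunoprecipitations (31.1 to 57.9). In IP 1, IP 2 and IP 3, 5, 6 and 2 peaks of the list had exactly this pileup, and the libraries differed in depth. The intervals cover counting error only, and they take each read as a separate molecule. The alignments were named as free of duplicates, with no molecular identifier to check this.

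The libraries of IP 1, IP 2 and IP 3 held 24037735, 23683012 and 19228143 tags, and the input held 28755427. To allow for this, pileups were also scaled to 1000000 tags. On that scale the start site stood at 1.79, 1.65 and 1.56 extended reads in IP 1, IP 2 and IP 3, a mean of 1.67 ± 0.12 (SD, n = 3). The upstream site stood at 1.79, 1.82 and 2.24, a mean of 1.95 ± 0.25 (SD, n = 3). The start site was lowest and the upstream site highest in IP 3, the shallowest library.

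The differences between immunoprecipitations in depth-scaled pileup were within counting error at both sites. The widest contrast at the start site, IP 1 over IP 3, was a ratio of 1.15 in depth-scaled pileup with an exact 95% interval of 0.703 to 1.89. At the upstream site the widest contrast was again IP 1 over IP 3, at 0.80 with an interval of 0.512 to 1.25. The fragment length used to extend reads also differed, at 163, 155 and 179 bp, and a longer extension raises a pileup of the same reads. Dividing each pileup by the background that a uniform genome would give in its own library takes account of depth and extension together. It gave 29.6, 28.7 and 23.5 at the start site and 29.6, 31.6 and 33.7 at the upstream site. No interval was computed for these values.

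The authors' fold enrichment divides the pileup by the local input background, with 1 added to both. The start site reached 16.3 in IP 1, 15.5 in IP 2 and 12.4 in IP 3, a mean of 14.7 ± 2.04 (SD, n = 3). At the upstream site it was 12.5, 15.2 and 15.8, a mean of 14.5 ± 1.73 (SD, n = 3). The sites were ordered differently in the 3 lists, with the start site ahead by 3.73 in IP 1, nearly level in IP 2 and behind by 3.39 in IP 3. Their means differed by less than either SD.

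The ratio of the fold at the upstream site to that at the start site took the values 0.771, 0.979 and 1.27 in IP 1, IP 2 and IP 3, with a mean of 1.01 ± 0.25 (SD, n = 3). A sign test over 3 pairs cannot give a two-sided exact p below 0.25, and none was run. For the pileups, IP 1 gave a ratio of 1.00 (exact 95% interval 0.640 to 1.56), IP 2 one of 1.10 (0.698 to 1.75) and IP 3 one of 1.43 (0.879 to 2.37). Each interval holds 1, so a difference in height between the sites was not detectable at this depth in any single library.

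**Figure D2:**
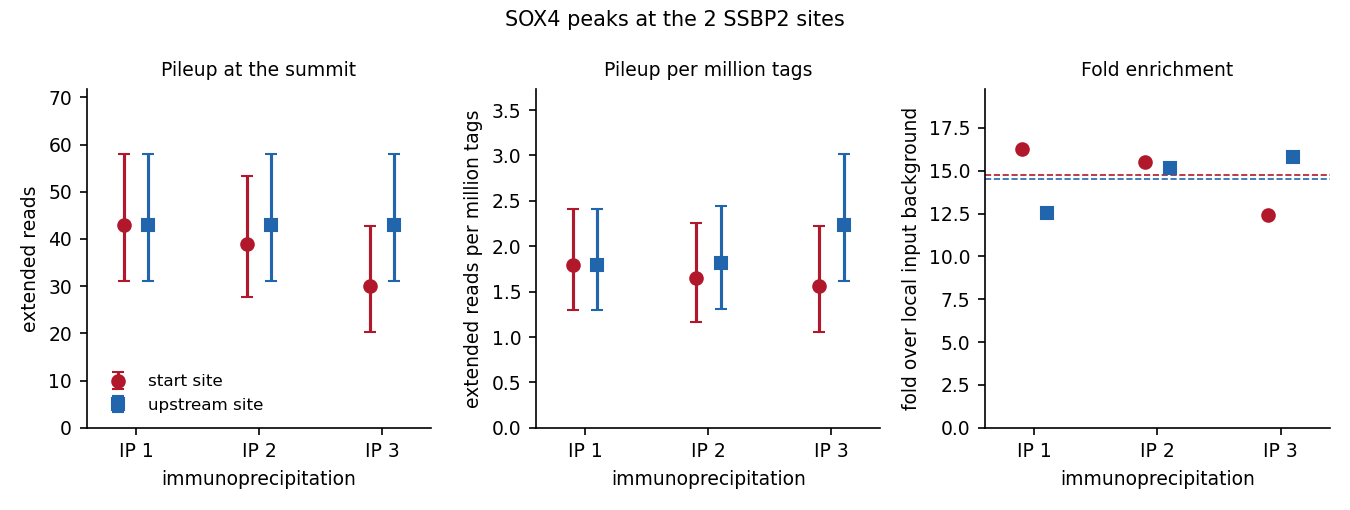
Pileup at the summit in extended reads, depth-scaled pileup in extended reads per 1000000 tags and fold over local input background at the start site (circles) and upstream site (squares) in each immunoprecipitation. Bars in the first pair of panels are exact 95% Poisson intervals, and dashed lines in the fold panel are the means of 14.7 and 14.5. The start site has the higher fold in IP 1 and the lower fold in IP 3.

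The background in the denominator of the fold could be read back from the pileup and the fold, and its steps give whole input reads. At the start site the background was 1.70, 1.58 and 1.50 reads in IP 1, IP 2 and IP 3. In all 3 lists it was set by the 10 kb around the summit, which held 125, 124 and 125 input reads, against 106.5 at the genome average. Because the highest of several windows is used, the input held at most 12 reads in the 1 kb around each summit, where the genome average is 10.7. It held at most 2, 1 and 2 reads in a window of 1 fragment length.

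At the upstream site the input was somewhat higher. In IP 2 and IP 3 the background was 1.90 and 1.78 reads, set by 149 input reads in 10 kb. In IP 1 it was 2.51 reads, set by 3 input reads within 1 fragment length of the summit, which lay 28 to 52 bp from the summits of the other lists. The lowest fold of this site, 12.5 in IP 1, thus stood on a background set by 3 reads of the input. With the background of 149 reads in 10 kb, as in the other lists, the same pileup in IP 1 would have a fold of 14.5, and the mean would be 15.2 ± 0.64 (SD, n = 3). This setting was chosen after the values had been seen.

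Both sites stood on less input than most shared regions. The background was 1.17 times the genome average at the start site and 1.51 times at the upstream site, as means of the 3 lists, against a median of 1.93 over the 263 shared regions. Of these regions, 27 had a lower background than the start site and 73 a lower background than the upstream site. Their places among the shared regions differed with and without the input in the measure. By mean fold the start site was number 13 and the upstream site number 14 of 263. By mean depth-scaled pileup, into which the input does not enter, they were number 60 and number 29.

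**Figure D3:**
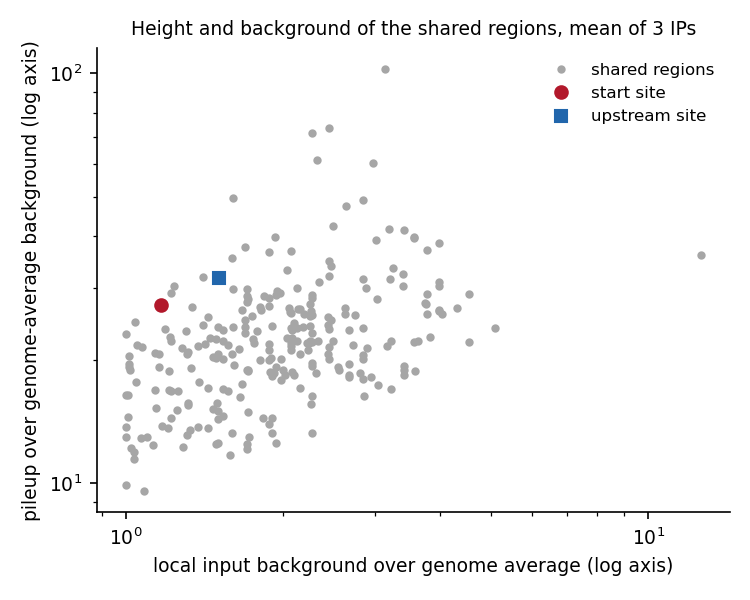
Mean pileup over the genome-average background (vertical, log axis) against mean local input background over the genome average (horizontal, log axis) for the 263 shared regions (grey), with the start site (circle) and the upstream site (square). The sites lie at 27.3 and 31.7 on the vertical axis and at 1.17 and 1.51 on the horizontal axis, to the left of most regions of their height.

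In each list the 6 peaks ranked near the top by fold. The start site was number 12 of 627 peaks in IP 1, number 14 of 524 in IP 2 and number 23 of 407 in IP 3. The upstream site was number 41, number 15 and number 7. By pileup the start site was number 52, 56 and 94 and the upstream site number 52, 40 and 23. The −log10 q values of the authors' Poisson test were 38.8, 34.4 and 23.2 at the start site and 32.0, 36.7 and 37.7 at the upstream site.

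**Figure D4:**
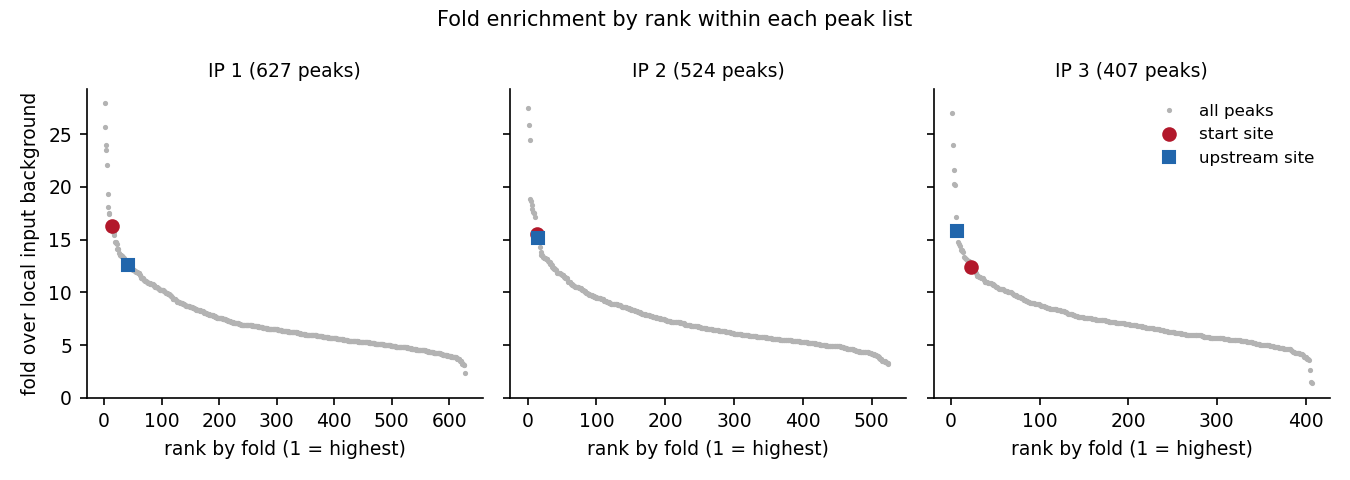
Fold over local input background of every peak (grey) against its rank within the list, by immunoprecipitation, with the start site (circle) and the upstream site (square). In IP 1, IP 2 and IP 3 the start site holds ranks 12, 14 and 23 and the upstream site ranks 41, 15 and 7.

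Of the 862 regions into which the peaks of the 3 lists merged, 30.5% held a peak of every list. Both regions of the window did, and the window held no region found in only 1 or 2 lists. Since the window was drawn around known peaks, nothing is read from this. The spread of fold over the 3 immunoprecipitations was 13.8% of the mean at the start site and 11.9% at the upstream site, against a median of 15.5% over the shared regions. The regions next to them in the order of mean fold were one on chromosome 6 at 15.2 ± 3.17-fold above the start site and one on chromosome 17 at 14.4 ± 2.22-fold below the upstream site (SD, n = 3). The sites differ from these neighbours by less than the SDs, so their places in the order are not firm.

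No peak of any list fell in the 347 kb of the window below the rounded start. That stretch holds the SSBP2 gene body as counted from the rounded start. A gene body counted from a start further upstream could take in the start site, and this was not determined here. No peak fell in the 100.2 kb between the sites, nor in the 52.1 kb from the upstream site to the window's upper end. The weakest peaks called anywhere had pileups of 11, 10 and 12 reads in IP 1, IP 2 and IP 3. A site below such heights would not have been called, so the empty stretches are not shown to be free of SOX4.

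The sites stood alone on a long stretch of chromosome 5. The nearest peak of any list on the lower side was one of IP 3 from 73921929 to 73922144, with a fold of 4.27 on 14 reads, 7.12 Mb from the start and 6.78 Mb outside the window. The nearest on the upper side was one of IP 2 from 107142179 to 107142445, with a fold of 5.05 on 17 reads, 26.1 Mb from the start and 25.9 Mb outside the window. Between these peaks lay 33.2 Mb in which the 3 lists had the 6 SSBP2 peaks and no other. Further below the window the same chromosome held a longer stretch with no peak of any list. Stretches of this length are therefore not particular to the surroundings of SSBP2.

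Chromosome 5 held 17 shared regions, and the SSBP2 sites ranked 2 and 3 among them by mean fold. They were also the first of the chromosome counted from the end of its short arm. Below the window there were 6 peaks in all, 3 of IP 1, 2 of IP 2 and 1 of IP 3, and no shared region. The nearest shared region above the window, from 140090759 to 140091088, was 59.0 Mb from the start and reached 7.66 ± 1.91-fold (SD, n = 3). Of the 17 shared regions of the chromosome, 12 had another within 50 kb. Those 12 lay in clusters far above the window. All remaining shared regions of the chromosome, the SSBP2 sites among them, had none that close, so this does not set the sites apart. The SSBP2 sites had 100153 bp between them, and each had only the other within 5 Mb.

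**Figure D5:**
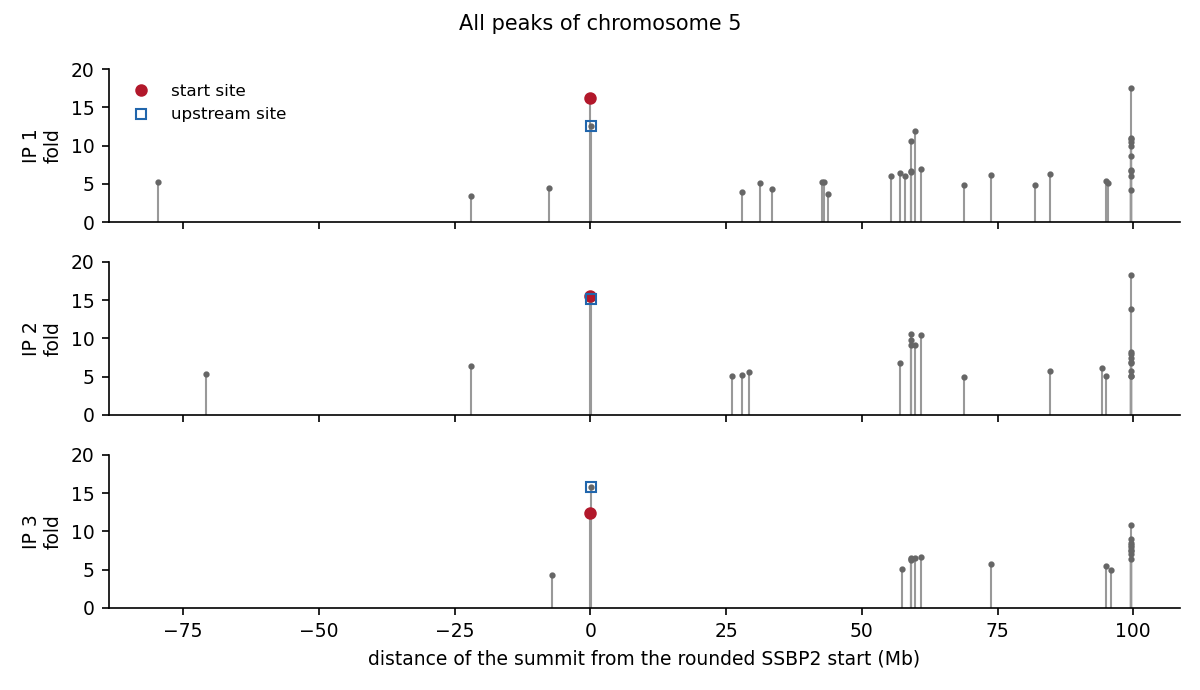
Fold over local input background (vertical) of every chromosome 5 peak of IP 1, IP 2 and IP 3 against the distance of its summit from the rounded SSBP2 start in Mb, with the start site (filled circle) and the upstream site (open square) near 0. No other peak stands between 7.12 Mb below and 26.1 Mb above the start.

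The spacing of the other shared regions is given for scale. Of the 263, 125 had another within 50 kb and 20 had their nearest one more than 50 kb but at most 200 kb away. Exactly 1 other within 5 Mb, lying within 200 kb, was found for 14 of the 263, the 2 SSBP2 sites among them. This count also admits regions less than 50 kb apart. Among the 20 regions of highest mean fold, 2 had that arrangement, the SSBP2 sites, each counted through the other. Of the same 20, 7 had another within 50 kb. These distances were chosen after the positions had been seen, so the counts are a description and do not set the sites apart.

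In the order of genes in the RefSeq table, the protein-coding neighbours of SSBP2 are ACOT12, an acyl-CoA thioesterase, on the lower side and ATG10, an enzyme of autophagosome formation, on the upper side, which is upstream of SSBP2. Between SSBP2 and ATG10 the table lists 4 loci, the long noncoding RNAs LOC107986384, LOC107986385 and LOC124901018 and the pseudogene SEM1P1. The upstream site was not placed at any of them, since an hg19 annotation was not used here. The series asks about tRNA genes, and the nearest ones that the table types as tRNA are far in gene order. They are TRK-CTT9-1, with 815 genes between it and SSBP2, and TRV-CAC1-2, with 1643 genes between.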

How the data were processed

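The labels describe single-end reads of 50 bases. The build hg19 and the tools MACS2 2.1.1.20160309, HOMER 4.9.1, Picard 2.10, Bowtie2 2.3.3.1 and bcl2fastq 2.20 are named, per the submitters' processing notes. Each immunoprecipitation was called by the authors on its own against 1 common input, per the file headers, at a q threshold of 0.05, on alignments named as free of duplicates, with the input scaled down and a local background over 1 kb and 10 kb. The pileup is the deposited signal at the summit. The fold enrichment is the authors' ratio, and −log10 p and −log10 q are as deposited. The headers name no treatment of reads with several equally good positions.

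Pileups were scaled to 1000000 tags. Local background was computed as (pileup + 1) / fold − 1, and in all peaks its Poisson tail came within 0.000212 of the deposited −log10 p. Peaks overlapping by at least 1 bp were merged. In each of 10 simulated runs the merging recovered all 200 planted sites. The sites were planted far apart with small shifts between lists, so this outcome was fixed in advance and false merging was not tested. All work used Python 3.11.15, scipy 1.17.1 and pandas 2.3.3. The members, lists and window were chosen with earlier results of these data known. Each peak of the window is named, with the nearest regions by position and by fold. SSBP2 and its neighbours matched the RefSeq table by symbol. A planned list of 13 family and partner genes (SSBP3, SSBP4, LDB1, LDB2, LMO1, LMO2, LMO3, LMO4, RLIM, TAL1, GATA2, LHX2 and ISL1) was not compared with peaks, because hg19 gene positions were not used here. Alternatives covered the q threshold, overlap, window, background, constant, ranking measure, summit and each immunoprecipitation.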

Additional observations from a re-analysis of the deposited data

How the results depend on the processing

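The number of shared regions in the window was 2 in every alternative run. These were a q of 1e-10 or less, 50% reciprocal overlap, a window wider by 500 kb on each side, and each immunoprecipitation left out. The number of peaks was 6, or 4 with an immunoprecipitation left out. Values given above fixed these counts in advance, so they are no test. The lowest −log10 q of the 6 peaks was 23.2, and the common stretches were 74.0% and 87.4%. The nearest outside peak lay 6.78 Mb beyond the window. The fold depends on its denominator by construction. Without the constant of 1 the mean became 23.3 at the start site and 21.3 at the upstream site, over the genome-average background 27.3 and 31.7, and as depth-scaled pileup, another unit, 1.67 and 1.95. With 1 immunoprecipitation left out it lay between 14.0 and 15.9 at the start site and between 13.9 and 15.5 at the upstream site. The ratio of upstream to start site lay between 0.875 and 1.13 with 1 immunoprecipitation left out, and was 1.18 for pileups, 0.933 without the constant and 1.05 with a 10 kb background in every list. The rank of the start site among shared regions, 13, became 60 by depth-scaled pileup and 25 by −log10 q, and was 12 to 16 with 1 immunoprecipitation left out. That of the upstream site, 14, became 29 and 18, and was 8 without IP 1 and 21 without IP 3. The summit range fell from 46 to 23 bp at the start site and from 52 to 19 bp at the upstream site when peak centres were used. With 1 immunoprecipitation left out it was 23 to 46 bp (23 without IP 2 or IP 3) and 24 to 52 bp (24 without IP 1, 28 without IP 2), as fewer summits give a narrower range. Between immunoprecipitation and input, no paired analysis was possible because the input is a single library with no peak list used here. The sites themselves were paired within each immunoprecipitation, as the ratios above. Pileups of 30 to 43 reads limit what can be told apart, since their exact intervals span 20.2 to 57.9 reads.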
